A study of Mus musculus with 4 samples.

Results

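The genes described here are the collagens, the laminins and 2 families of matrix proteases, Adamts with the protease-like Adamtsl genes and Mmp, read on 4 microarrays of RNA from mouse gut. Members were the probe sets annotated with 1 gene symbol that belonged to these families by name, with Mmp7 left out. They came to 125 probe sets of 98 genes, out of 21640 single-symbol probe sets of 19937 genes. The collagens gave 46 probe sets of 44 genes, the laminins 10 probe sets of 10 genes, the Adamts family 48 probe sets of 23 genes and the Mmp family 21 probe sets of 21 genes.

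RNA from intestinal tissue of adult C57BL/6 mice, labelled as intestinal epithelium, had been crosslinked to protein with ultraviolet light before immunoprecipitation, a design known as CLIP. The groups were the precipitate of an antibody to Msi1 (Musashi1, an RNA-binding protein of gut and neural progenitor cells), the precipitate of an antibody to hnRNP (the labels do not name which hnRNP protein), the precipitate of nonspecific IgG, and input RNA that had not been precipitated. Each group was 1 Affymetrix Mouse Gene 1.0 ST array carrying RNA pooled from 2 experiments, and 100 ng of RNA was labelled. No group had a replicate, so differences are given by their size and no test was possible. Precision is limited by having 1 array a group.

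Collagens are triple-helical proteins that form fibrils, networks and basement membranes, and most of those in the gut wall are made by fibroblasts and muscle. Laminins are cross-shaped trimers of an alpha, a beta and a gamma chain that carry epithelia on their basement membrane, and gut epithelium makes several of the chains itself. Mmp and Adamts enzymes are zinc proteases that cut collagens, proteoglycans and other matrix proteins, while Adamtsl proteins share the Adamts accessory domains but lack the protease domain.

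Values are log2 signals, with base 2 inferred from their range, and each array was given a detection floor, set at the 95th percentile of the signals of 1208 odorant and vomeronasal receptor genes' probe sets, which gut should hardly express. The floors were 4.74 on the Msi1 array, 5.17 on hnRNP, 5.26 on IgG and 4.09 on Input, and the receptor medians were 3.54, 3.83, 3.89 and 2.93 on the same arrays. The background thus lay at different heights, and members were read both as deposited and relative to the floor of each array. The tissue label was checked against marker genes. Of 10 epithelial markers, 10 exceeded the floor on Msi1, 8 on hnRNP, 7 on IgG and 10 on Input, where they lay between 7.61 and 12.79. On Input, 4 of 7 fibroblast and pericyte markers exceeded the floor, with the matrix proteoglycan gene Dcn at 6.12 and the filament gene Vim at 5.57, while Lum, Postn and Pdgfra lay below it. On Input, 0 of 6 smooth muscle and 0 of 6 endothelial markers exceeded the floor, though Acta2 lay only just below it, at 4.08. Of 6 immune markers found, 3 exceeded it, with Cd3e at 6.36, Ptprc at 4.86 and Itgam at 4.51. Of 4 enteric neuron and glia markers found, 1 did, Sox10 at 4.43.

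Most collagen probe sets stood above the floor on each array, whereas most protease probe sets did not. On Msi1, 37 of the 46 collagen probe sets exceeded the floor, on hnRNP 38, on IgG 34 and on Input 36. The matching shares of all single-symbol probe sets were 47.4% on Msi1, 32.3% on hnRNP, 27.5% on IgG and 59% on Input. In all, 33 of 46 collagen probe sets (71.7%) exceeded the floor on all 4 arrays, against 17.2% of all single-symbol probe sets. The same held for 1 of 10 laminin, 7 of 48 Adamts and 2 of 21 Mmp probe sets. With the floor at the 99th percentile, the members above it numbered 35 rather than 62 on Msi1, 44 rather than 72 on hnRNP, 31 rather than 56 on IgG and 19 rather than 58 on Input. In bulk RNA, fewer cells of a type and less RNA per cell cannot be told apart, so a level on Input does not say how many cells carried a transcript.

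**Figure D1:**
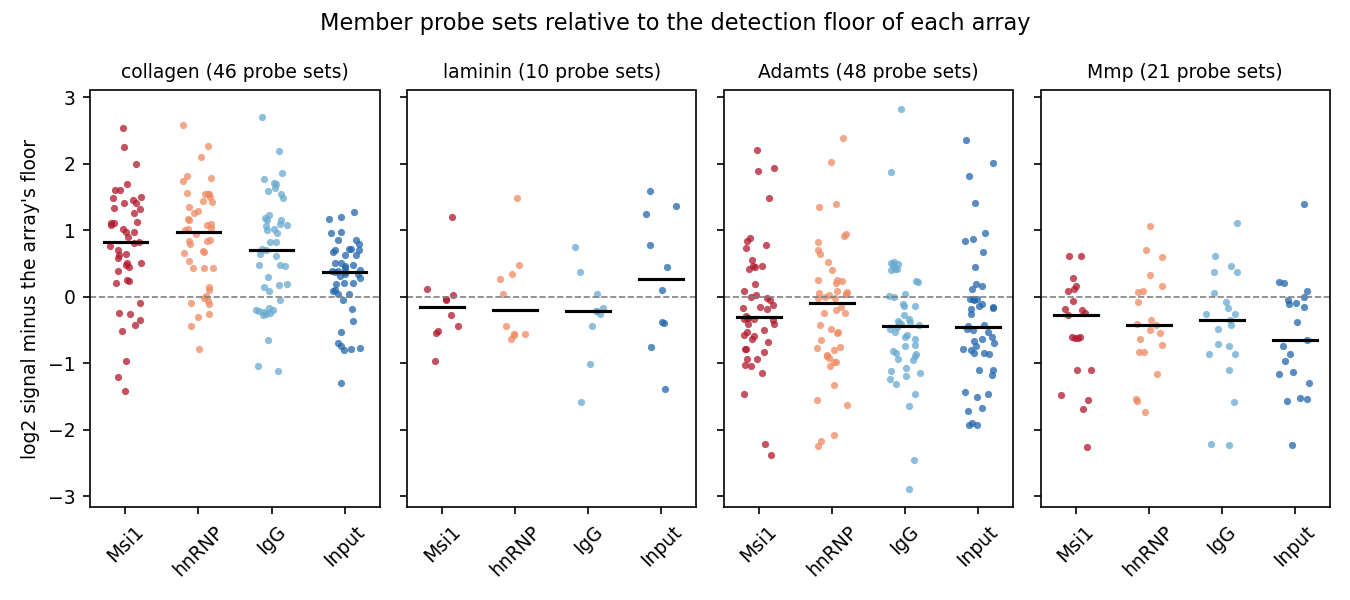
Each point is a member probe set, placed by its log2 signal minus the floor of that array (dashed line at 0), with the 4 arrays along each horizontal axis and black bars at the median. Collagen medians lay 0.82 above the floor on Msi1, 0.98 on hnRNP, 0.71 on IgG and 0.38 on Input, while the Adamts and Mmp medians lay below the floor on all 4 arrays.

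The collagen signals on Input were close to the floor, and 45 of 46 collagen probe sets had their lowest deposited value there. So did 7 of 10 laminin, 44 of 48 Adamts family and 20 of 21 Mmp probe sets. The background was lower on Input too. Of 1208 receptors, 1064 were higher in Msi1 than in Input, 1143 in hnRNP and 1140 in IgG. The share of all probe sets lowest on Input was not counted. The widest margin of a collagen over the Input floor was 1.28 log2 units, for Col9a2, found on the surface of cartilage fibrils, at 5.37. The chains of type I collagen, the main fibril of interstitial tissue, also lay close to the floor on Input. Col1a1 read 6.20 in Msi1, 6.45 in hnRNP, 6.50 in IgG and 4.80 in Input. Its partner Col1a2 read 5.25, 6.20, 6.22 and 4.72 on the same arrays. Both chains were thus lowest on Input, as most members were, and above the floor throughout. Col3a1, which forms fibrils beside type I collagen, read 5.39 in Msi1, 5.60 in hnRNP, 5.44 in IgG and 4.80 in Input.

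Collagens of cartilage were above the floor on all 4 arrays as well. This group of 7 (Col2a1, Col9a1, Col9a2, Col9a3, Col10a1, Col11a1 and Col11a2) was put together after the values were seen. Its values ran between 5.25 and 7.28 on Msi1, 5.60 and 7.44 on hnRNP, 5.56 and 7.46 on IgG, and 4.30 and 5.37 on Input. Col2a1, the chief fibril collagen of cartilage, read 6.24 in Msi1, 6.91 in hnRNP, 7.13 in IgG and 4.79 in Input. Col10a1, a marker of enlarging cartilage cells, read 5.85, 5.83, 6.28 and 4.30. These genes are not known as products of gut epithelium, and what their signal on the arrays stands for was not tested.

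The basement membrane chains Col4a1 and Col4a2, which pair in nearly all tissues, were above the floor on every array. Col4a1 read 5.50 in Msi1, 6.17 in hnRNP, 5.35 in IgG and 4.57 in Input. Col4a2 read 6.01, 6.67, 6.76 and 4.42. The chains Col4a3 and Col4a4, best known from kidney, also exceeded every floor, at 4.99 and 6.35 in Msi1 and 4.17 and 4.89 in Input. Col4a5 and Col4a6 were below the floor on all 4 arrays. Other collagens below every floor were Col12a1 and Col19a1, and so were 1 of the 2 probe sets of Col6a5 and of Col6a6.

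Of the 10 laminin chains, 6 had signal above the floor on Input. Lama3 and Lamb3 are chains of the laminin that anchors epithelial cells through hemidesmosomes. Lama3 read 4.29 in Msi1, 4.53 in hnRNP, 4.83 in IgG and 5.33 in Input, and Lamb3 read 4.70, 5.51, 5.10 and 5.46. Lama3 was above the floor on Input alone, and Lamb3 on Input and hnRNP. Lamc1, the gamma chain of most laminins, read 4.22 in Msi1, 4.62 in hnRNP, 4.26 in IgG and 4.86 in Input, and was above the floor on Input alone. Lama5, the alpha chain of mature epithelial basement membranes, read 4.77, 5.22, 5.05 and 4.54, so that it narrowly passed the floor on Msi1 and hnRNP and passed it on Input. Lamb2 was the only laminin above the floor on all 4 arrays, at 5.94 in Msi1, 6.66 in hnRNP, 6.01 in IgG and 5.68 in Input. Lamc3 exceeded the floor on hnRNP, IgG and Input, Lama1 on Msi1 and hnRNP, and Lamb1, a beta chain that pairs with Lama5 and Lamc1, on IgG alone, with 3.69 on Input. Lama2, the alpha chain of muscle, and Lama4, that of blood vessels, were below every floor. Relative to the floor, 5 of 10 laminins were highest on Input, near the 59% of all single-symbol probe sets, whereas 2 of 46 collagen probe sets were.

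**Figure D2:**
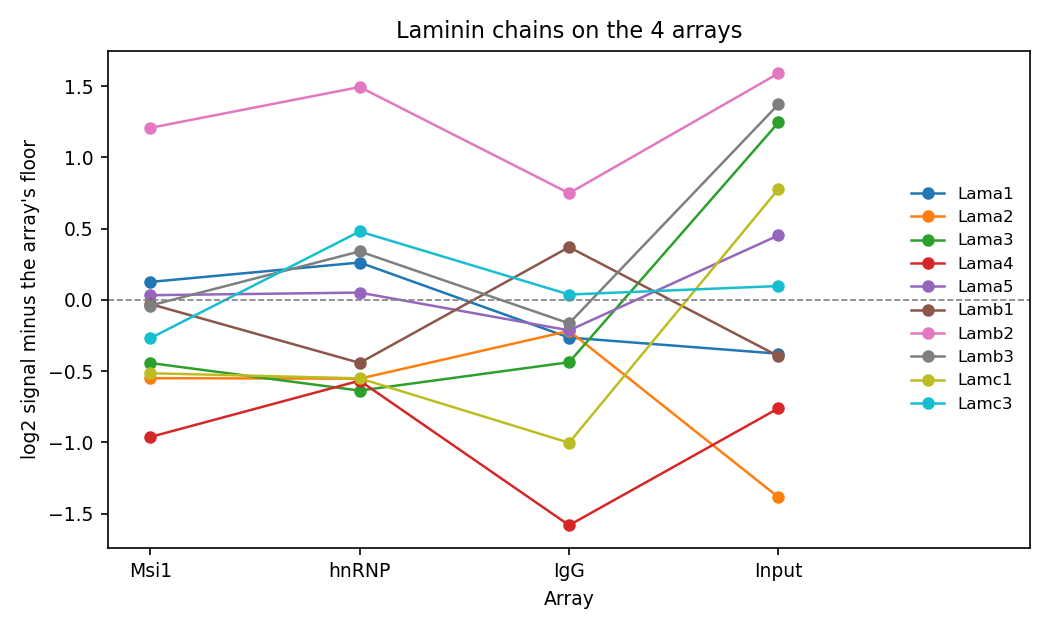
Lines join the log2 signal minus the floor for each of the 10 laminin chains on the 4 arrays, and the dashed line marks the floor. Lama3, Lamb3 and Lamc1 stood highest on Input, and Lamb2 was above the floor on every array.

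On each array most protease probe sets were below the floor, as were most of all single-symbol probe sets except on Input. Above it on Msi1, hnRNP, IgG and Input were 33.3%, 45.8%, 27.1% and 25% of Adamts family probe sets. For Mmp these shares were 28.6%, 33.3%, 28.6% and 19%, and for all probe sets 47.4%, 32.3%, 27.5% and 59%. Protease shares were thus under the background on Msi1 and Input only, apart from a near-equal one on IgG. Adamts3 alone gave 16 of the 48 Adamts family probe sets. In the Mmp family, 11 of 21 probe sets were below the floor throughout (52.4%), and in the Adamts family 22 of 48 (45.8%), against 32% of all single-symbol probe sets. They comprised the collagenases Mmp1a, Mmp1b, Mmp8 and Mmp13, the stromelysins Mmp3, Mmp10 and Mmp11, the macrophage elastase Mmp12, the membrane-type Mmp16, and Mmp19 and Mmp27. Of 9 Mmp genes that follow one another in the RefSeq gene order of assembly GRCm38.p6, 8 were below every floor. The exception was Mmp20, the enamel protease of teeth, which read 4.55 in Msi1, 5.10 in hnRNP, 5.64 in IgG and 3.12 in Input and passed the floor on IgG alone. Mmp14, a membrane-bound collagenase that activates Mmp2, had its highest value on Input, with 4.68 in Msi1, 4.75 in hnRNP, 5.33 in IgG and 5.48 in Input. It was the only Mmp probe set with its highest deposited value there. The gelatinase Mmp2 read 5.35, 5.50, 5.88 and 4.30 and was above the floor on all 4 arrays, as was the membrane-anchored Mmp17. Mmp28 passed the floor on hnRNP and Input, at 5.26 and 4.18, each by a small margin. Of the others, Mmp9 was above the floor on Msi1 and IgG, Mmp23 on these and hnRNP, Mmp24 and Mmp25 on Msi1 and hnRNP, and Mmp21 on hnRNP.

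In the Adamts family, 16 of 23 genes had at least 1 probe set above the floor on at least 1 array (69.6%), close to the 68.2% of all genes. In the Mmp family 10 of 21 genes did (47.6%). Adamts1, Adamts5, Adamts6, Adamts12, Adamts18, Adamts20 and Adamtsl3 had none. Adamts15, a proteoglycan-cutting enzyme, read 4.41 in Msi1, 4.96 in hnRNP, 4.15 in IgG and 4.95 in Input and was above the floor on Input alone. Adamtsl5 read 5.19, 5.42, 5.16 and 5.90, the only Adamts family probe set with its highest deposited value on Input. Adamts10 and Adamtsl4, both tied to fibrillin microfibrils, were above the floor on all 4 arrays. Adamts10 read 5.51 in Msi1, 6.08 in hnRNP, 5.75 in IgG and 4.26 in Input, and Adamtsl4 read 5.58, 5.99, 5.80 and 4.93. Adamts7 lay above the floor on Msi1, hnRNP and Input, at 5.63, 5.24 and 4.77. Adamts13, the enzyme that trims von Willebrand factor, was above it on hnRNP and IgG, at 5.22 and 5.28, each by a small margin.

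The Msi1 precipitate was set against IgG, over which, per the series' design text, the submitters ranked enrichment. Of 70 members detected, that is above the floor on 1 array of the pair or on both, 0 were at least 2-fold higher in Msi1, whereas 19.8% of all detected probe sets were. That background includes probe sets that passed the floor only where they were high. It was 8.11% among probe sets above the floor on both arrays, where 0 of 48 members were higher, and 10.7% with no floor, where 0 of 125 were. At least 2-fold lower were 6 of 70 members (8.57%), against 7.04% of all, so that share lay near the background. It did so too with detection on both arrays (3 of 48, against 5.54%) and with no floor (11 of 125, against 8.44%). At a threshold of 1.5-fold 26 of 70 members were lower, against 19.5% of all, so that share lay above the background. At that threshold 2 of 70 were higher, against 30.1%. The median difference was −0.40 over the 70 detected members, against 0.09 over all detected probe sets. With no floor it was −0.40 over the 125 members, against −0.18 over all probe sets and −0.38 over the receptors, of which 16.1% were at least 2-fold lower. With detection on both arrays it was −0.48 over 48 members, against −0.27 over all. The gap to all probe sets thus depended on the filter, at −0.49 as deposited, −0.22 with no floor, −0.21 with detection on both arrays and −0.81 with quantile normalization. The members' own sign depended on scaling, since the median was 0.13 when each array's values were taken over its floor. There 3 members were higher, against 34.1% of all probe sets, and 1 lower, against 1.49%. Median centring gave 1 higher, against 22.3%, and 3 lower, against 5.06%. Quantile normalization gave 0 higher, against 23.7%, and 23 lower, against 15.1%.

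**Figure D3:**
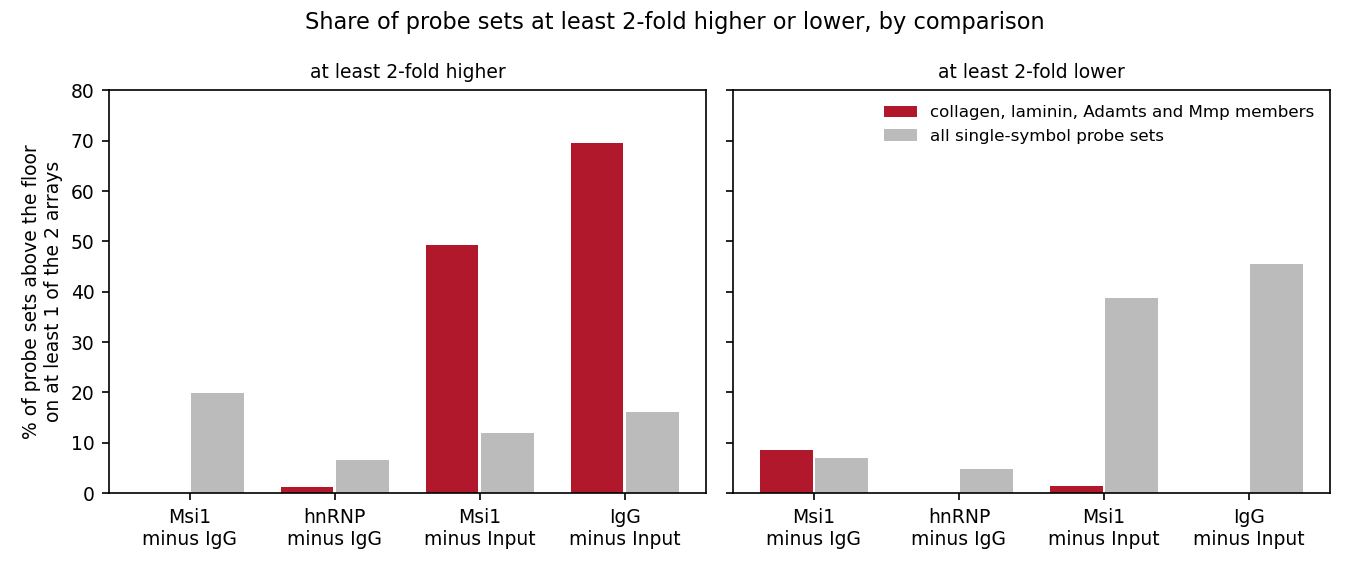
Bars give the percentage of probe sets at least 2-fold higher (left) or lower (right) among those above the floor on 1 or both arrays of a pair, for the members (red) and for all single-symbol probe sets (grey). The share of members higher was 0% for Msi1 minus IgG, 49.3% for Msi1 minus Input and 69.6% for IgG minus Input.

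The 6 lower probe sets came from 5 genes. Adamts9, an enzyme that cuts the proteoglycan versican, was lower on 2 of its 6 probe sets. The first read 6.62 in Msi1 and 8.08 in IgG, a difference of −1.46 (2.75-fold lower), and both values lay above the floor. The second read 3.95 in Msi1 and 5.66 in IgG, a difference of −1.71, which is at least 1.90-fold lower with the Msi1 value raised to its floor. The other 4 Adamts9 probe sets, 2 of them below both floors, differed by −0.11, −0.03, 0.14 and 0.71, so its probe sets did not go one way. Adamts17 was lower on 1 of 5 probe sets, with 4.61 in Msi1 and 5.77 in IgG (−1.16, at least 2.04-fold lower), while another differed by 0.90, the highest of all members. Col6a6, a chain of beaded collagen filaments, read 5.32 in Msi1 and 6.36 in IgG (−1.03, 2.05-fold lower), and its other probe set, below both floors, differed by −0.83. Mmp17 read 5.35 in Msi1 and 6.37 in IgG (−1.02, 2.03-fold lower), and Mmp20 differed by −1.09 (at least 1.87-fold lower). Apart from the Adamts9 probe sets, these differences lay between −1.16 and −1.02, close to the 2-fold line at −1.

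By family, collagens had a median Msi1 minus IgG difference of −0.48 as deposited (38 detected probe sets, 33 of them negative). Of all detected probe sets, 5124 of 11164 were negative. Of the receptors, taken without a floor, 897 of 1208 were, with a median of −0.38. The collagen median was −0.35 with median centring, −0.48 with loess centring and −0.83 with quantile normalization, but 0.05 over the floors. The 11 fibrillar collagens were all negative as deposited, from −0.97 for Col1a2 and −0.89 for Col2a1 to −0.04 for Col5a2. Lowest of all collagens after Col6a6 were Col8a1 (−0.99) and Col6a1 (−0.98). The collagens with the highest differences were Col9a1 at 0.58, Col20a1 at 0.32 and Col4a1 at 0.15. Laminins had a median of −0.28 over 5 detected chains, and the lowest were Lamb1 (−0.93), Lamc3 (−0.84) and Lama5 (−0.28), with Lama1 at −0.14 and Lamb2 at −0.07. Taken over the floors, the laminin median was 0.25. The 8 Mmp probe sets detected here had a median of −0.68, with Mmp9 at −0.79, and differences closest to 0 in Mmp24 (−0.02), Mmp25 (−0.28) and Mmp2 (−0.52). Their median was −0.15 over the floors. The 19 Adamts family probe sets had a median of −0.22 as deposited and 0.31 over the floors.

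**Figure D4:**
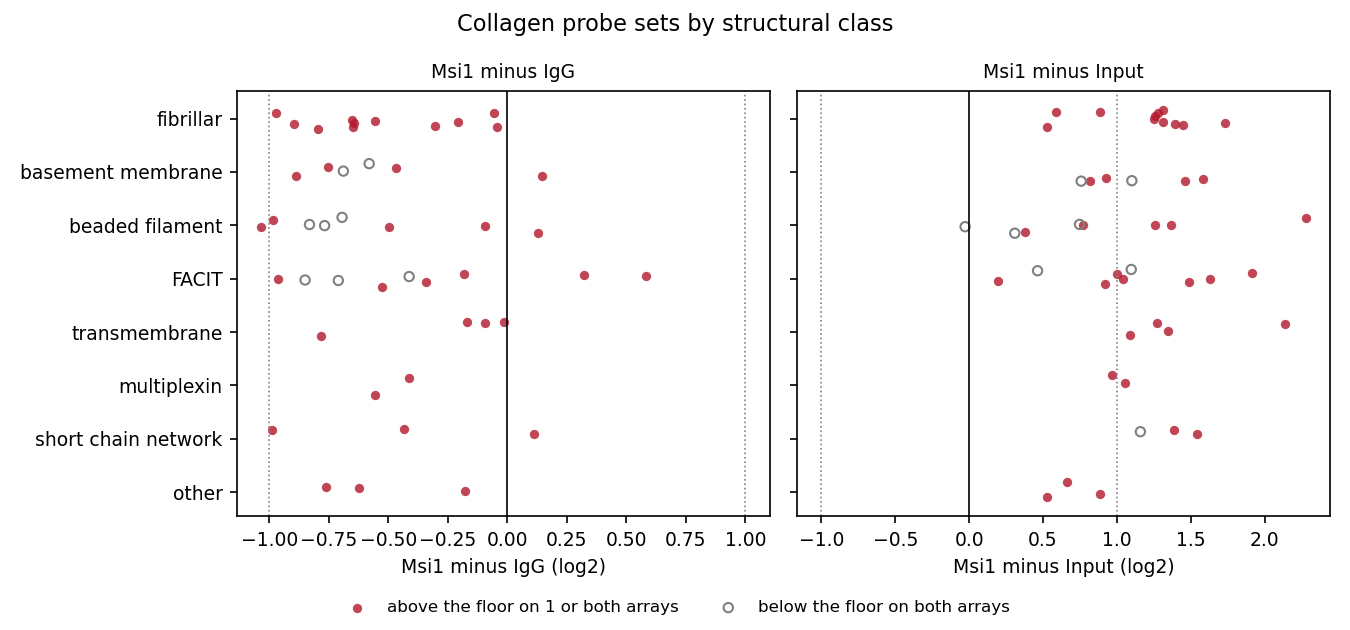
Points are collagen probe sets, grouped by structural class down the page, placed by Msi1 minus IgG (left) and Msi1 minus Input (right) in log2 units, with dotted lines at 2-fold. Red points were above the floor on 1 or both arrays and open points were not. The fibrillar collagens lay between −0.97 and −0.04 on the left and between 0.53 and 1.73 on the right.

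Genes with several probe sets gave a measure of how far such differences vary within a gene. Adamts3, which processes procollagen, had 16 probe sets, of which 3 exceeded the floor on Msi1 or IgG, and their differences were −0.39, −0.22 and 0.22. Over all 16 the Msi1 minus IgG differences ran from −0.82 to 0.22, with a median of −0.30. Over the whole array, 480 genes had more than 1 probe set detected in this comparison, and the range between the probe sets of a gene had a median of 1.22 log2 units. A member's difference from IgG is measured from 0 and not between probe sets, so it cannot be set directly against that range.

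**Figure D5:**
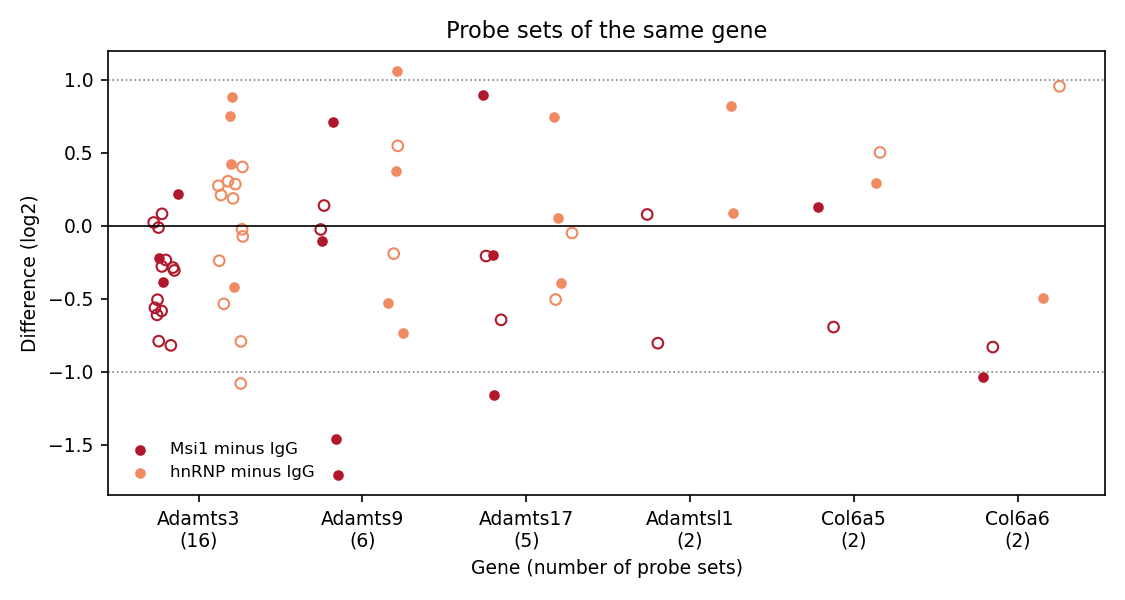
Points are probe sets of the 6 member genes that have several, placed by Msi1 minus IgG (red) and hnRNP minus IgG (orange) in log2 units, with filled points above the floor on 1 or both arrays, open points below it on both, and dotted lines at 2-fold. The Adamts9 probe sets spread from −1.71 to 0.71 in Msi1 minus IgG.

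The hnRNP precipitate was set against the same IgG array, which it therefore shares with the Msi1 comparison. Of 77 members detected, 1 (1.30%) was at least 2-fold higher, against 6.58% of all probe sets, and 0 were at least 2-fold lower, against 4.76%. With detection on both arrays 1 of 51 was higher, against 2.13%, and 0 lower, against 1.42%. With no floor 1 of 125 was higher, against 4.23%, and 1 lower, against 4.04%. The higher one was an Adamts9 probe set, at 6.57 in hnRNP and 5.51 in IgG (1.06, 2.09-fold), which differed by 0.71 in Msi1 minus IgG. It is 1 of 6, and the others ran from −0.74 to 0.55. The members' median was 0.15, against 0.08 for all probe sets. With quantile normalization 8 were higher and 3 lower, against 13.1% and 10.9% of all. Over the floors 3 were higher and 0 lower, against 8.35% and 3.49%.

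Collagens had a median hnRNP minus IgG difference of 0.02 (38 detected), with both signs under the scalings tried, from −0.02 with quantile normalization to 0.12 over the floors. The highest were Col14a1 (0.94), Col4a1 (0.82) and Col9a1 (0.76), and the lowest were Col6a6 (−0.49), Col10a1 (−0.46) and Col9a3 (−0.44). Among laminins, Lamb2 (0.65), Lama1 (0.43) and Lamb3 (0.41) were the highest, and Lamb1 (−0.91), Lama5 (0.17) and Lamc3 (0.34) the lowest. In the Mmp family Mmp24 (0.95), Mmp25 (0.67) and Mmp28 (0.25) had the highest differences and Mmp9 (−0.82), Mmp14 (−0.58) and Mmp20 (−0.55) the lowest. Adamts9 held the highest and the lowest difference of its family, 1.06 and −0.74, with Adamts3 (0.88) and Adamts16 (0.87) next at the top and another Adamts9 probe set (−0.53) and Adamts3 (−0.42) next at the bottom.

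Against Input, the starting RNA, members lay high in Msi1 as deposited. At least 2-fold higher were 35 of 71 members (49.3%), against 11.9% of all probe sets, and 1 (1.41%) was at least 2-fold lower, against 38.7%. Some of these passed the floor on Msi1 alone, so the count without any floor is given too, 55 of 125 members against 16.2% of all probe sets, with 1 lower against 24.8%. With detection on both arrays 26 of 49 members were higher, against 8.34%, and 0 lower, against 39.1%. A lower call there needed an Input value at least 1 log2 unit above the Msi1 floor of 4.74. The highest collagen, laminin and Mmp values on Input were 5.37, 5.68 and 5.48, so none of these families could give one. The median over all 125 members was 0.92, against 0.17 over all single-symbol probe sets and 0.57 over the receptors, of which 21.0% were at least 2-fold higher. The Msi1 floor was also higher than the Input floor. Over the floors 4 members were at least 2-fold higher, against 2.6% of all, and 6 lower, against 56.2%. The members' median was then 0.35, against −1.22 for all. Median centring gave 24 higher, against 7.14%, and 3 lower, against 45.1%. Epithelial markers went the other way, with 0 of 10 higher and 10 lower and a median of −2.48. Of 6 smooth muscle markers 2 were detected (Des and Acta2), and of 6 endothelial markers 2 (Cdh5 and Kdr). All of these were higher, but they passed the floor on Msi1 alone and so could not have been called lower. Of 7 fibroblast and pericyte markers, 4 were detected, with 0 higher, 1 lower (Dcn, −2.42) and a median of −0.17. Of 6 immune markers, 3 were detected, with 0 higher, 1 lower and a median of −0.91. The part of these markers and of the background in the result was not tested.

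All 38 collagen probe sets detected in Msi1 or Input were higher in Msi1 as deposited, 24 of them at least 2-fold. Of all detected probe sets 4755 of 13834 were higher by any amount, and of the receptors, without a floor, 1064 of 1208. The collagen median was 1.26, and it stayed positive under every scaling tried, between 0.61 over the floors and 1.42 with loess centring. Col6a1, a chain of beaded filaments, read 6.99 in Msi1 and 4.71 in Input (2.28, 4.85-fold). Col23a1, a transmembrane collagen, read 6.73 in Msi1 and 4.59 in Input (2.14, 4.40-fold). Col9a2 read 7.28 in Msi1 and 5.37 in Input (1.91, 3.76-fold). Col5a1, which sets the width of fibrils, read 6.22 in Msi1 and 4.48 in Input (1.73, 3.32-fold). Over the floors, 4 of the 38 collagen probe sets were still at least 2-fold higher, against 2.6% of all probe sets.

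The other collagens past 2-fold in Msi1 minus Input lay between 1.04 and 1.63 and covered most classes. Among fibrillar ones these were Col1a1 (1.39), Col2a1, Col5a2, Col5a3, Col11a2, Col24a1 and Col27a1, and among basement membrane chains Col4a2 (1.58) and Col4a4 (1.46). They also included Col6a2 and Col6a5, the network-forming Col8a2 and Col10a1, the fibril-associated Col9a1, Col9a3 and Col16a1, Col15a1, and the transmembrane collagens Col13a1, Col17a1 and Col25a1. Col17a1, a hemidesmosome protein of epithelia, read 5.13 in Msi1 and 4.04 in Input, where it was below the floor, so it was at least 2.06-fold higher. Col5a2, also below the Input floor, was at least 1.86-fold higher. The smallest differences were those of Col14a1 (0.19), Col6a6 (0.38) and Col1a2 (0.53).

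Laminins did not share this pattern. Lama3 was the only member at least 2-fold lower in Msi1 than in Input (−1.04), or at least 1.51-fold with its Msi1 value raised to the floor. Lamb3 (−0.76, at least 1.65-fold lower) and Lamc1 (−0.64, at least 1.09-fold) were the next lowest, Lamc3 differed by 0.29, Lamb2 by 0.27 and Lama5 by 0.23. Lama1, the laminin alpha chain of the early embryo, was higher by 1.15 (at least 1.71-fold). The laminin median of 0.23 turned negative with median centring (−0.02), quantile normalization (−0.01), loess centring (−0.14) and over the floors (−0.42). Median centring and the floors move every probe set by the same amount, and relative to all detected probe sets the laminin median stayed 0.80 higher under both. That gap was 0.11 with quantile normalization and −0.00 with loess centring.

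Among proteases, 8 of 18 Adamts family probe sets and 2 of 8 Mmp probe sets exceeded Input at least 2-fold in Msi1 as deposited. Of all probe sets 11.9% did, and 38.7% were lower, while 0 of these proteases were. The Mmp count was 0 under median centring, quantile normalization, loess centring and over the floors. The Adamts count was 4, 8, 8 and 0 under the same settings, and the shares of all probe sets were 7.14%, 12.6%, 15.6% and 2.6%. Over the floors 2 Adamts family probe sets and 1 Mmp probe set were lower, against 56.2% of all. The Mmp genes were Mmp2 and Mmp17, both at 1.05. Mmp23 followed at 0.95, and the lowest were Mmp14 (−0.80), Mmp28 (0.32) and Mmp9 (0.82). The Adamts genes were Adamts9 (1.57 on 1 probe set), Adamts3 (1.49 and 1.25 on 2 of its 16), Adamts8 (1.48), Adamts10 (1.25), Adamts16 (1.21), the procollagen processing enzyme Adamts14 (1.17) and the aggrecan-cutting Adamts4 (1.03). For Adamts4, Adamts8 and Adamts14 the difference was below 2-fold once the Input value was raised to the floor, at 1.80-fold, 1.61-fold and 1.67-fold. The lowest Adamts family values were those of Adamtsl5 (−0.71), Adamts15 (−0.54) and Adamts17 (0.31).

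The IgG array was also set against Input, and it shares the Input array with the comparison above. At least 2-fold higher were 48 of 69 members (69.6%), against 16.2% of all probe sets, and 0 were lower, against 45.5%. With detection on both arrays 37 of 45 members were higher, against 24.1%, and 0 lower, against 32.3%. A lower call there needed an Input value at least 1 log2 unit above the IgG floor of 5.26. No collagen, laminin or Mmp probe set reached that on Input. Without a floor, 0 of 125 members were lower, against 28.9%, and 84 were higher, against 30.8% of all probe sets, and of the receptors 47.7% were. The members' median of 1.5 was 0.32 over the floors, against −1.94 for all probe sets. There 6 members were higher, against 2.48% of all, and 8 lower, against 69.9%. Median centring gave 38 higher, against 11.1%, and 2 lower, against 53.1%. Epithelial markers had a median of −4.46, with 10 of 10 lower.

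Collagens had the highest family median in this comparison, with Mmp close to it. In IgG, 32 of 37 detected collagen probe sets were at least 2-fold higher than in Input, with a median of 1.70. All 37 were higher by any amount, as were 4633 of 13733 detected probe sets and, without a floor, 1140 of 1208 receptors. At least 2-fold higher too were 5 of 7 Mmp (median 1.61), 9 of 18 Adamts family (0.99) and 2 of 7 laminin probe sets (0.34). Col6a1 read 7.97 in IgG and 4.71 in Input (3.26, 9.59-fold), Col2a1 7.13 and 4.79 (2.35, 5.08-fold) and Col4a2 6.76 and 4.42 (2.33, 5.04-fold). An Adamts9 probe set read 8.08 in IgG and 5.05 in Input (3.03, 8.17-fold), while another of its probe sets differed by 0.00. Mmp20 read 5.64 in IgG and 3.12 in Input (2.52, at least 2.94-fold higher). In Msi1 minus Input, Col6a1 stood at 4.85-fold and Col2a1 at 2.73-fold. Above the floor in Input but not in IgG were the laminins Lama3, Lama5, Lamb3 and Lamc1 and the collagens Col6a4, Col14a1 and Col20a1. So were Adamts7, Adamts15, Adamtsl5, Mmp28 and 1 probe set each of Adamts3 and Adamts17.

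Other genes of the matrix were counted from 5 lists, each gene by its probe set with the highest mean. Of 55 genes found, 25 were detected in Msi1 or IgG, and 2 were at least 2-fold higher (19.8% of all detected probe sets were) and 3 lower (7.04% of all), with a median of −0.16. P4hb, a subunit of the collagen prolyl hydroxylase and also a general disulphide isomerase, read 7.61 in Msi1, 4.93 in hnRNP, 4.80 in IgG and 10.04 in Input, at least 5.08-fold higher than in IgG. Itgb1, the beta subunit of most collagen and laminin receptors, read 6.32, 4.75, 3.74 and 7.53, at least 2.08-fold higher than in IgG. Both were highest on Input and below the floor on IgG. The lower ones were the protease inhibitors Timp1 and Timp4 and the procollagen enhancer Pcolce, all below the floor in Msi1. With that floor in place of their Msi1 values they were at least 1.67-fold, 1.60-fold and 1.73-fold lower. In hnRNP minus IgG, 0 of 20 detected genes were at least 2-fold higher, against 6.58% of all, and 1 was lower, against 4.76%. This was Timp1, below the floor in hnRNP and at least 1.24-fold lower.

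Genes of matrix receptors were mostly above the floor on Input and lower in Msi1. Of 11 matrix receptor genes, 10 were above the floor on Input, and 8 of 10 detected were at least 2-fold lower in Msi1 than in Input, against 38.7% of all probe sets, with 0 higher. Itga6 and Itgb4, which together bind the laminin of hemidesmosomes, read 5.49 and 5.81 in Msi1 and 8.32 and 7.16 in Input. Of 9 basement membrane partners, Agrn and Dag1 were at least 2-fold lower in Msi1 than in Input and Frem2 was higher. The nidogens Nid1 and Nid2, which link laminin to collagen networks, were below every floor.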

How the data were processed

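Signals of 34760 probe sets on 4 arrays were used as the log2 values deposited by the authors. The submitters' processing notes name affy. Its version, the log base, and how signals were corrected and normalized are not stated there. The distributions of the arrays differed (SD 1.38 for Msi1, 1.20 for hnRNP, 1.17 for IgG and 2.01 for Input). Each array held pooled RNA, so no spread between samples could be measured. Probe sets with several symbols (1321) or none (11799) were left out, and all 125 members matched the RefSeq gene table by Entrez identifier.

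Differences were counted at 2-fold among probe sets above the floor on 1 or both arrays of a pair. A dimmer value below its floor was raised to it to give a lower bound ("at least"). The members, lists and comparisons were chosen with earlier results of these data known. Named were, per family, probe sets past 2-fold, the 3 highest and 3 lowest of a comparison, the brightest on Input, genes with several probe sets, and members above the floor in Msi1 but not in Input. Alternatives were other floors, detection on both arrays, median centring, quantile normalization, loess centring (span 0.4), thresholds of 1.5-fold and 3-fold, 1 probe set a gene and raised dim values. Values over each array's floor were added after seeing the data. The steps were tested on simulated data. Python 3.11.15 was used with pandas 2.3.3, numpy 2.4.6, statsmodels 0.14.6 and matplotlib 3.10.9.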

Additional observations from a re-analysis of the deposited data

How the results depend on the processing

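The counts of members past 2-fold moved with the settings. The shares of all probe sets moved too, with these ranges over the settings. In Msi1 minus IgG 8.11% to 34.1% were higher and 1.26% to 19.5% lower. In hnRNP minus IgG 1.03% to 18.8% were higher and 0.747% to 14.5% lower. In Msi1 minus Input 2.6% to 20.2% were higher and 19.5% to 56.2% lower. In IgG minus Input 2.48% to 30.8% were higher and 28.0% to 69.9% lower. The counts below are of members, and brackets hold the share of all probe sets at the same setting. For Msi1 minus IgG, 0 of 70 were higher and 6 lower in the main setting. The lower count was 3 of 42 with the floor at the 99th percentile (6.33%), 11 of 125 without a floor (8.44%) and 3 of 48 with detection on both arrays (5.54%). Of 70 it was 3 with median centring (5.06%), 23 with quantile normalization (15.1%) and 26 at 1.5-fold (19.5%). It was 1 of 70 at 3-fold (1.26%) and 1 of 70 over the floors (1.49%). The higher count was 1 of 70 with median centring (22.3%), 2 of 70 at 1.5-fold (30.1%) and 3 of 70 over the floors (34.1%). It was 0 under the remaining settings (8.11% to 33.3%). For hnRNP minus IgG, 1 of 77 was higher and 0 lower in the main setting. The higher count of 77 was 8 with quantile normalization (13.1%), 14 at 1.5-fold (18.8%), 0 at 3-fold (1.03%) and 3 over the floors (8.35%). It was 0 of 68 with 1 probe set a gene (6.26%). The lower count was 1 of 125 without a floor (4.04%), 3 of 77 with quantile normalization (10.9%) and 3 of 77 at 1.5-fold (14.5%). For Msi1 minus Input, 35 of 71 were higher and 1 lower in the main setting. The higher count was 55 of 125 without a floor (16.2%). Of 71 it was 54 at 1.5-fold (20.2%), 5 at 3-fold (3.13%) and 4 over the floors (2.6%). The lower count was 0 of 49 with detection on both arrays (39.1%) and 0 of 71 with raised dim values (35.0%). Under both settings no collagen, laminin or Mmp probe set could be called lower. Of 71 it was 0 with quantile normalization (19.5%) and at 3-fold (24.8%), 3 with median centring (45.1%), 5 at 1.5-fold (49.6%) and 6 over the floors (56.2%). For IgG minus Input, 48 of 69 were higher and 0 lower in the main setting. The higher count was 29 of 39 with the stricter floor (9.17%) and 84 of 125 without a floor (30.8%). Of 69 it was 31 at 3-fold (8.59%) and 6 over the floors (2.48%). The lower count of 69 was 2 with median centring (53.1%), 1 with quantile normalization (33.2%) and 2 with loess centring (28.0%). It was 3 of 69 at 1.5-fold (53.6%) and 8 of 69 over the floors (69.9%). Members above the stricter floor numbered 35 on Msi1, 44 on hnRNP, 31 on IgG and 19 on Input. No called difference of a single member changed sign under median centring, quantile normalization or loess centring. Values over the floors, which subtract 1 constant from every difference of a pair, were run on the counts and medians only. The cause of these shifts was not tested, apart from settings that by construction test fewer or more probe sets. No paired analysis was possible because each group is 1 array. No replicate could be left out for the same reason. Signal over background limits the Mmp and Adamts results most, since most of their probe sets lay below the floor.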

Other observations

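Member genes that lie next to each other in RefSeq's gene order did not always read alike. The pair Col3a1 and Col5a2 differed little in Msi1 minus IgG, at −0.05 and −0.04, and the pair Col4a6 and Col4a5 stood at −0.58 and −0.69, with both genes below every floor. The pair Col4a1 and Col4a2, above the floor on every array, stood at 0.15 and −0.75. Col6a2 and Col6a1, whose chains assemble together, stood at −0.50 and −0.98.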
